A study of Mus musculus with 4 samples.

Results

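Transcripts of 9 secreted growth and repair factors were followed in mouse peritoneal macrophages. They were insulin-like growth factor 1 (Igf1), the platelet-derived growth factor chains Pdgfa and Pdgfb, vascular endothelial growth factor A (Vegfa), the epidermal growth factor receptor ligands Hbegf, Areg and Ereg, growth differentiation factor 15 (Gdf15) and growth arrest-specific 6 (Gas6). Macrophages are known sources of these factors. The genes were chosen by symbol with earlier results of these data known, and the rule itself used no measured value. All 9 were found among the 16403 genes with a read in any library, and 7 of them were listed in every library. Areg and Ereg were each listed at 1 read where they were listed at all.

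Total RNA from thioglycolate-elicited peritoneal macrophages of C57BL/6 mice was sequenced in 4 libraries. The cells came from wild-type (WT) mice or from knockout (KO) mice lacking Trim24 (TIF1a) in myeloid cells, and each genotype was sampled untreated or after 6 h with mouse IL-4 at 20 ng/mL. Before that, every group shared an intraperitoneal injection of 4% thioglycolate, collection of the cells after 4 days, adherence for 4 h and medium with 0.5% serum. The deletion was made with Trim24 floxed alleles and LysM-Cre, whose recombinase is driven by the lysozyme M gene and acts in macrophages and other myeloid cells, and the study's methods describe young adult mice with wild-type littermates as controls. Whether a library came from a single mouse or from pooled mice is not given in the sources used here. Each group held 1 library, so differences could not be checked in replicates, and the tests on reads compared libraries, not conditions.

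Macrophages that respond to IL-4 enter the alternatively activated, or M2, state, which is associated with tissue repair. IGF1 acts through the IGF1 receptor on growth and survival, PDGF chains dimerise and act on mesenchymal cells, and VEGF-A acts on endothelium through FLT1, KDR and the neuropilins. HB-EGF, amphiregulin and epiregulin are made as membrane precursors that ADAM proteases release, GAS6 bridges dying cells to TAM receptors such as MERTK and AXL, and GDF15 is a stress-responsive member of the TGF-beta superfamily.

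The libraries held 11026033 to 11250099 expected reads and listed 14717 to 14923 genes. Trim24 was listed at 2.55 and 1.48 FPKM (fragments scaled by transcript length and library total) in the untreated and treated WT libraries, against 0.06 and 0.14 FPKM in the KO libraries. Log2 ratios followed transcript length, with Spearman's rho across 10443 genes of -0.37 for IL-4 in the WT, -0.11 for IL-4 in the KO, 0.13 for genotype without IL-4 and 0.52 for genotype with IL-4. Because of this trend the results for Igf1, whose transcripts are long, are also given with the trend removed.

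The factors differed widely in abundance. Pdgfa had the highest mean over the 4 libraries at 28.4 FPKM, followed by Igf1 at 20.4, Gas6 at 17.9, Vegfa at 14.8 and Gdf15 at 11.1 FPKM. Hbegf averaged 3.7 FPKM and Pdgfb 1.2 FPKM, and Areg and Ereg averaged 0.0175 and 0.01 FPKM. Pdgfa exceeded 85.1% of all listed genes by mean FPKM, and Hbegf exceeded 49.9%.

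The order of the levels changed with IL-4. In untreated WT macrophages Gas6 (24.8 FPKM) and Pdgfa (22.9 FPKM) led with overlapping 95% intervals, and Vegfa and Igf1 (both 16.3 FPKM) also overlapped. With IL-4 the WT order was led by Pdgfa (28.2 FPKM) and Igf1 (27.6 FPKM), whose intervals overlapped, and Gas6 and Gdf15 came next with overlapping intervals. In the untreated KO Pdgfa led at 31.6 FPKM, above Vegfa at 24.1 and Gas6 at 21.9 FPKM, the last pair overlapping. In the KO with IL-4 Pdgfa at 30.9 FPKM was followed by Igf1 at 25.8 FPKM, and these intervals did not overlap. All intervals cover counting error only, since sequenced reads without molecular identifiers are not independent molecules.

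**Figure D1:**
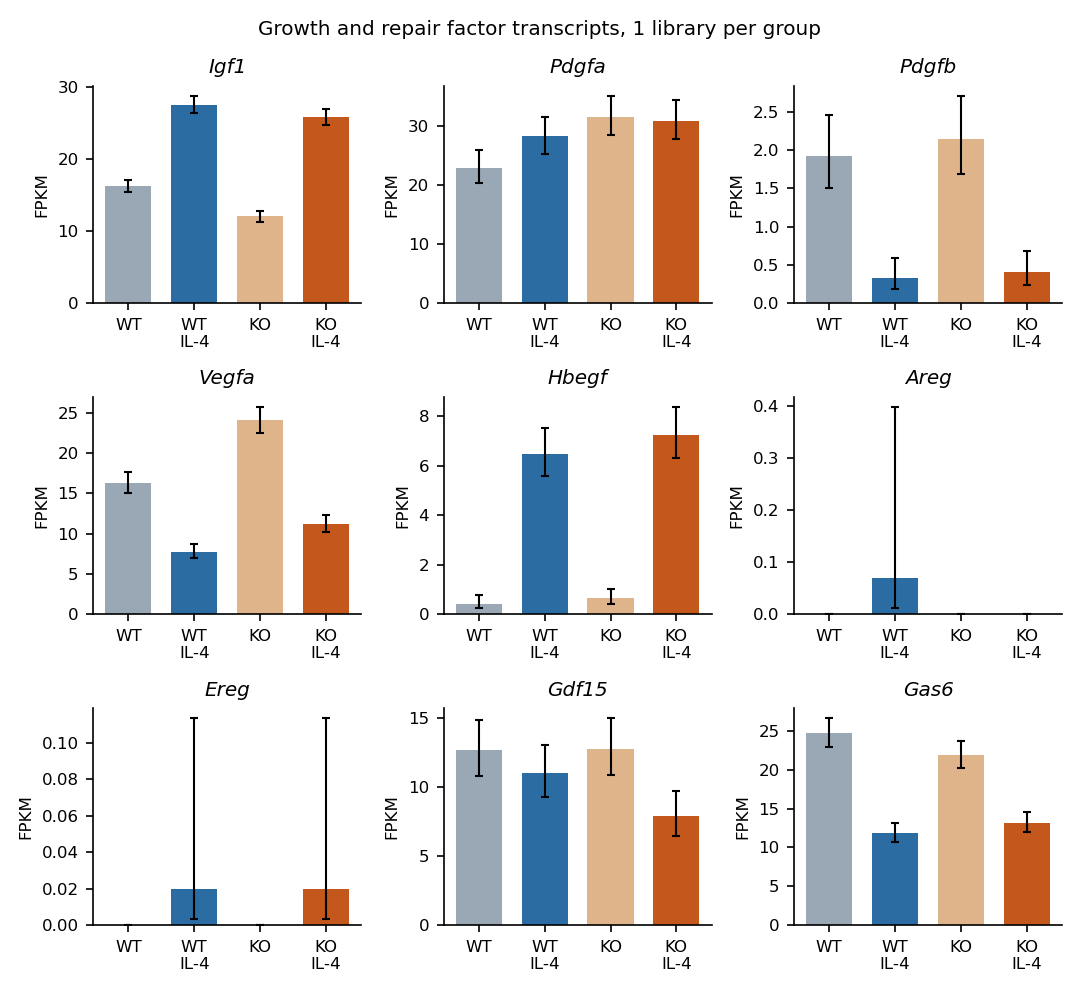
Bars give the deposited FPKM of each factor in 4 libraries (WT, wild-type; KO, knockout; 1 library per group), with 95% Wilson intervals of the library share rescaled to FPKM and a separate axis from 0 in each panel. Hbegf rose from under 1 FPKM to 6.48 and 7.26 FPKM with IL-4, Pdgfb fell to 0.33 and 0.4 FPKM, and Areg and Ereg rested on single reads.

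To ask which factors changed with IL-4, treated and untreated libraries were compared within each genotype. Igf1 and Hbegf rose and Pdgfb, Vegfa and Gas6 fell in both genotypes, whereas Gdf15 fell in the KO pair. A gene was called at a fold above 1.5 on the log2(FPKM + 0.1) scale and an adjusted p under 0.05 (two-sided Fisher's exact test on reads, Benjamini-Hochberg adjustment over all genes with a read in the pair). In the WT 2 factors were called higher, where 4.91% of 15593 genes were, and 3 lower, where 7.89% were. In the KO 2 were called higher and 4 lower, against 5.29% and 4.04% of 15738 genes. In both pairs together the calls took in 3.56% of 14960 genes as higher and 2.91% as lower. The 7 factors averaging 0.5 FPKM or more had a median log2 ratio of -0.20 in the WT and -0.68 in the KO, beside all-gene medians of -0.015 and 0.0054. In these bulk libraries fewer cells making a transcript and less transcript per cell cannot be told apart.

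**Figure D2:**
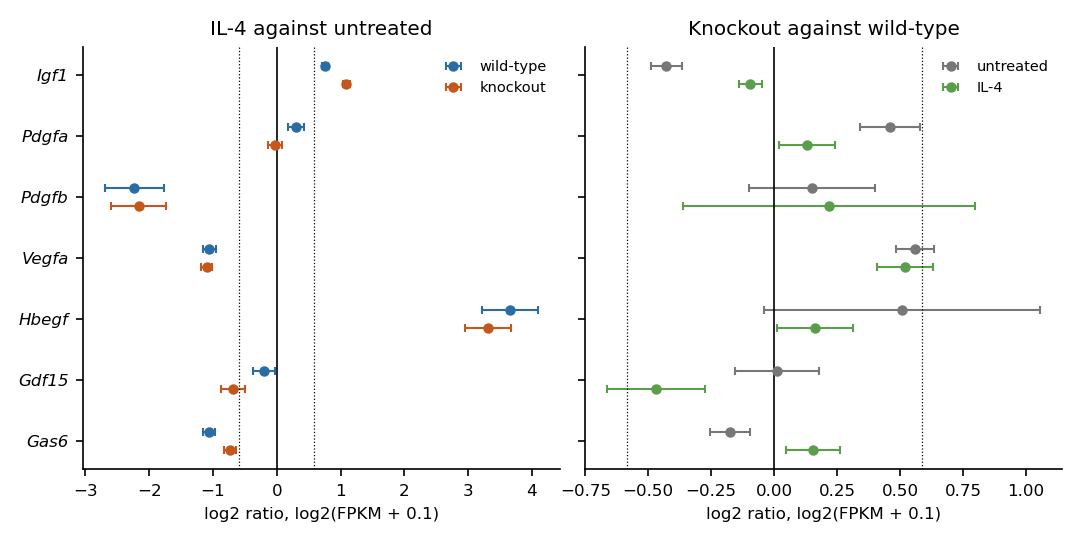
Points give log2 ratios on the log2(FPKM + 0.1) scale for IL-4 against untreated (left) and KO against WT (right), with bars of 1 standard error from counting and dotted lines at a fold of 1.5. Hbegf (3.66 and 3.31) and Pdgfb (-2.23 and -2.16) lie farthest from 0 on the left, and on the right none of the 7 factors plotted lies beyond the dotted lines. Areg and Ereg, with at most 1 read, are not plotted.

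Among ligands of the epidermal growth factor receptor, Hbegf gave the largest ratio of the 9 factors. Hbegf, heparin-binding EGF-like growth factor, lies on chromosome 18 from 36504927 to 36515805 on the minus strand in GRCm38.p6. It was listed at 0.42 FPKM in untreated WT macrophages, 6.48 FPKM with IL-4, 0.64 FPKM in the untreated KO and 7.26 FPKM in the KO with IL-4. The untreated values rested on 11 and 17 reads and the treated values on 175 and 192 reads, and both treated libraries stood above both untreated ones. The library share with IL-4 was 15.6 times the untreated share in the WT (95% interval 8.51 to 31.8, adjusted p by Fisher's exact test 4.71e-37) and 11.3 times in the KO (6.87 to 19.8, 2.07e-37). The log2 ratio of 3.66 in the WT was above that of 99.5% of the genes tested.

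Areg and Ereg, which encode amphiregulin and epiregulin, lie next to each other on chromosome 5, with 45950 bases between the end of Ereg and the start of Areg. Areg had 1 read in WT macrophages with IL-4 and was listed at 0 in the other libraries. Ereg had 1 read in each IL-4 library and was listed at 0 in both untreated libraries. A count of 0 in these libraries allows a share of up to 0.272 CPM (reads scaled by library total), which is the level of 3 reads, so no difference was detectable at this depth and no fold is given.

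Igf1 rose with IL-4. The gene spans 87858265 to 87937047 on the plus strand of chromosome 10, and its transcripts averaged 7105 to 7119 bases. It was listed at 16.3 FPKM in untreated WT macrophages, 27.6 FPKM with IL-4, 12.1 FPKM in the untreated KO and 25.8 FPKM in the KO with IL-4. Both treated libraries were above both untreated ones, and the untreated KO library was the lowest. The rise was 1.69-fold in the WT (log2 ratio 0.76 ± 0.050, standard error from counting, adjusted p by Fisher's exact test 8.01e-52) and 2.13-fold in the KO (1.09 ± 0.057, 4.8e-88). With the length trend removed these log2 ratios were 1.13 and 1.19.

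Of the PDGF chains, Pdgfb fell with IL-4 and Pdgfa was not called. Pdgfa, on chromosome 5 (138976014 to 139000792, minus strand), was listed at 22.9 and 28.2 FPKM in untreated and treated WT cells, and at 31.6 and 30.9 FPKM in the KO. Its WT ratio of 1.23 had an adjusted p of 0.042 by Fisher's exact test but did not reach the fold of 1.5, and its KO ratio was 0.98 (adjusted p = 0.976). With the length trend removed the WT log2 ratio was 0.15, with an adjusted p of 0.438 by an exact binomial test. Pdgfb, which encodes the B chain, lies on chromosome 15 (79995865 to 80024614, minus strand). It was listed at 1.92 FPKM in untreated and 0.33 FPKM in treated WT macrophages, and at 2.14 and 0.4 FPKM in the KO. These values rested on 63, 11, 70 and 13 reads, and both treated libraries lay below both untreated ones. The untreated share was 5.84 times the treated share in the WT (95% interval 3.05 to 12.3, adjusted p by Fisher's exact test 2.29e-09) and 5.38 times in the KO (2.95 to 10.6, 1.74e-09).

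Vegfa fell with IL-4 in both genotypes and stood higher in the KO in both states, by less than the fold threshold. The gene lies on chromosome 17 from 46016993 to 46032377 on the minus strand. It was listed at 16.3 FPKM in untreated WT macrophages, 7.77 FPKM with IL-4, 24.1 FPKM in the untreated KO and 11.2 FPKM in the KO with IL-4. The untreated KO library was the highest and the treated WT library the lowest. Vegfa was 2.08-fold lower with IL-4 in the WT (log2 ratio -1.06 ± 0.10, adjusted p by Fisher's exact test 3.69e-26) and 2.14-fold lower in the KO (-1.10 ± 0.086, 7.01e-38).

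Transcripts of the VEGF receptors moved with IL-4 as well. Flt1, which encodes VEGF receptor 1, was listed at 0.11 and 3.09 FPKM in untreated and treated WT cells, and at 0.44 and 10.1 FPKM in the KO. It rose in both genotypes and was called higher in the KO in both states, with a log2 ratio of 1.36 without IL-4 (31 against 8 reads) and 1.67 with IL-4 (706 against 221 reads). Kdr, which encodes VEGF receptor 2, fell from 2.8 to 1.06 FPKM in WT and from 2.58 to 1.17 FPKM in KO cells. The co-receptor transcripts Nrp1 and Nrp2 were called lower too, Nrp1 from 45.8 to 25.2 FPKM and from 48.1 to 31.2 FPKM, and Nrp2 from 37.4 to 14.9 FPKM and from 41.8 to 25.2 FPKM. With the length trend removed the Nrp1 log2 ratio came to -0.56 in both genotypes, below the fold of 1.5. Nrp2 was called higher in the KO with IL-4 at a log2 ratio of 0.75, which came to 0.50 with the length trend removed.

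**Figure D3:**
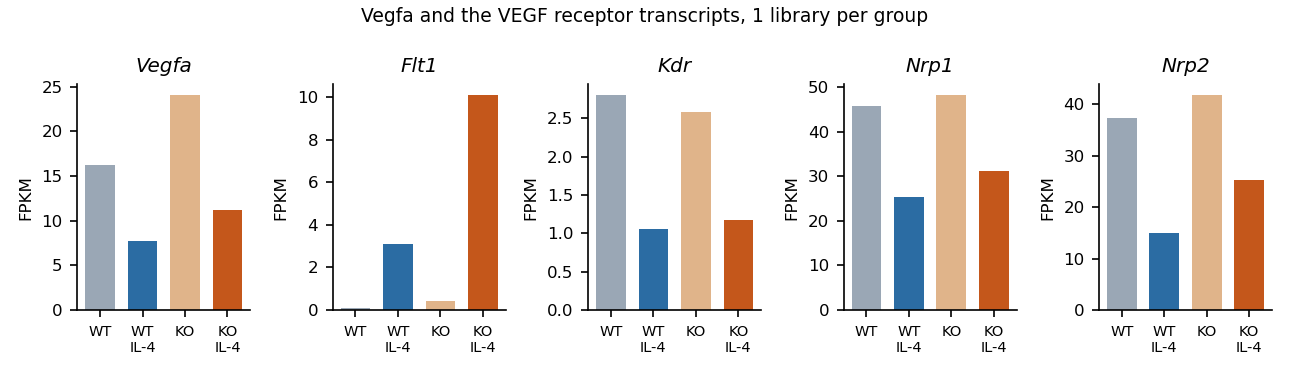
Bars give FPKM of Vegfa and of 4 VEGF receptor and co-receptor genes in the 4 libraries (WT, wild-type; KO, knockout; 1 library per group), each on its own axis from 0. Vegfa, Kdr, Nrp1 and Nrp2 are lower with IL-4 in both genotypes, and Flt1 is highest in the KO with IL-4 at 10.1 FPKM.

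Gas6, which encodes a vitamin K-dependent ligand of the TAM receptors, also fell. It lies on chromosome 8 (13465374 to 13494535, minus strand) and was listed at 24.8 FPKM in untreated WT macrophages, 11.9 FPKM with IL-4, 21.9 FPKM in the untreated KO and 13.2 FPKM in the KO with IL-4. Both treated libraries were below both untreated ones. Gas6 was 2.08-fold lower with IL-4 in the WT (log2 ratio -1.05 ± 0.094, adjusted p by Fisher's exact test 1.36e-29) and 1.66-fold lower in the KO (-0.73 ± 0.094, 4.5e-14). Among the TAM receptors, Mertk was listed at 22.6 and 23.3 FPKM in the WT and 29.7 and 35.3 FPKM in the KO, and Axl and Tyro3 were not called in any pair. Pros1, which encodes the other TAM ligand protein S, rose from 12.8 to 20.0 FPKM in the WT and from 15.8 to 24.3 FPKM in the KO, opposite to Gas6.

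Gdf15 was measured at 12.7, 10.99, 12.8 and 7.91 FPKM in untreated WT, treated WT, untreated KO and treated KO macrophages. The gene lies on chromosome 8 (70629393 to 70632470, minus strand). The treated KO library was the lowest, though its interval met that of the treated WT library, and the intervals of the other libraries overlapped one another. Its ratio was not called in the WT (log2 ratio -0.20 ± 0.17, adjusted p by Fisher's exact test 0.452) and was 1.6-fold lower with IL-4 in the KO (-0.68 ± 0.19, 0.0019).

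Promoter sequence was read from RefSeq promoter windows in GRCm38.p6 for 6 of the factors. Igf1, Pdgfa, Vegfa, Areg, Gdf15 and Gas6 gave 9 windows. Hbegf was left out of the search by choice, whether or not RefSeq holds a window for it. No window of Pdgfb or Ereg was searched either, and whether RefSeq holds windows for those genes was not established. Hbegf, the factor with the largest rise, is therefore not covered by the counts below. The 250 bases before each start site were searched on both strands for TTCNNNNGAA (the STAT6 site), TTCNNNGAA (a STAT site), GGGCGG (GC box), TGACGTCA (cAMP response element) and the core promoter element TATAAA. Of the 9 windows 0 held TTCNNNNGAA, which 5.85% of all 32851 windows of this length held, and 0 held TTCNNNGAA, which 7.02% held. These letters were absent from these windows only, and nothing follows about STAT6 binding elsewhere. GGGCGG was found in 6 of the 9 windows and in 32.7% of all windows. Shown are Vegfa and Gas6, which fell together with IL-4, and Areg, which was at or near 0, each 5′ to 3′ on the strand of the gene with matches in capitals (CCGCCC is a GC box read on the opposite strand).
Vegfa: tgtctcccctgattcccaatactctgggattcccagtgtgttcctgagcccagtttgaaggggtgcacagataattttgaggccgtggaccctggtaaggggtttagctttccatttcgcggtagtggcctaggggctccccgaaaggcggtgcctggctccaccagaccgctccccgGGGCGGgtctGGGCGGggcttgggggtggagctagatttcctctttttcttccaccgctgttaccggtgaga
Gas6: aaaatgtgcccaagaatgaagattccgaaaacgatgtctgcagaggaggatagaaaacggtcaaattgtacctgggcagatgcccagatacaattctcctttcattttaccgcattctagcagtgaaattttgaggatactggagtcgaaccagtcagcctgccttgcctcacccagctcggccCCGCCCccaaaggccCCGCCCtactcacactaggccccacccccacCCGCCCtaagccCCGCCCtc
Areg: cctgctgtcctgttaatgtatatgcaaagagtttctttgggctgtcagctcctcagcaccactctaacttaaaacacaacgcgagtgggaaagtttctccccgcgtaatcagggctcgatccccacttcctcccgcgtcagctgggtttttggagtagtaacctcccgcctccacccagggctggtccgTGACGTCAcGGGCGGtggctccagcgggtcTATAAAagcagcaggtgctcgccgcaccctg

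The Vegfa window (chr17:46032378-46032627, minus strand) held 2 GC boxes, the nearer starting 62 bases before the start site. The Gas6 window (chr8:13494536-13494785, minus strand) held 4, the nearest starting 8 bases before it. Neither held the other motifs. Bases after the start site were found in sense transcripts for Vegfa and Areg. For Gas6 they were found in no transcript in either direction, so its strand rests on the annotation. The Areg window (chr5:91139349-91139598, plus strand) held TGACGTCA 61 bases, a GC box 52 bases and TATAAA 31 bases before the start site, and 1.55% of all windows held TGACGTCA and 12.4% TATAAA. The motifs did not overlap one another, and a match is a description of letters, not of binding.

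Expression was next compared between genotypes. None of the 9 factors reached the fold of 1.5 together with an adjusted p under 0.05. Without IL-4 the share of all 15623 genes called was 0.839% for higher and 0.742% for lower in the KO, and with IL-4 it was 3.04% and 0.764% of 15573 genes. At the adjusted p alone, differences smaller than the fold threshold were seen. Vegfa was 1.47-fold higher in the KO without IL-4 (log2 ratio 0.56 ± 0.076, adjusted p by Fisher's exact test 2.86e-11) and 1.43-fold higher with IL-4 (0.52 ± 0.11, 1.06e-05). Igf1 was 1.35-fold lower in the untreated KO (-0.43 ± 0.062, 1.98e-10) and 1.07-fold lower with IL-4 (-0.09 ± 0.044, 0.116). With the length trend removed the Igf1 log2 ratios were -0.47 and -0.42. Both then passed the adjusted p threshold by an exact binomial test, though not the fold. Under TMM and DESeq2 scaling the treated ratio, -0.11 with either, passed that threshold too. Pdgfa was 1.37-fold higher in the untreated KO (0.46 ± 0.12, 0.003) and 1.09-fold higher with IL-4 (0.13 ± 0.11, 0.532). For Pdgfb, Hbegf, Gdf15 and Gas6 the adjusted p lay between 0.0735 and 1 in both genotype pairs. With 11 to 17 reads behind the untreated Hbegf values, the KO share there was 1.55 times the WT share with a 95% interval of 0.683 to 3.65.

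Markers of other cells were read beside the genotype differences. The list of mesothelium and fibroblast markers, cells that also express Igf1, summed to 39.2 and 33.2 FPKM in the WT without and with IL-4 and to 19.8 and 32.4 FPKM in the KO. Of its 6 members averaging 0.5 FPKM or more, 5 were called lower in the untreated KO (over all genes 0.742%). With IL-4 3 were called lower and 1 higher (over all genes 0.764% and 3.04%). Dcn, a fibroblast proteoglycan, was listed at 14.4, 13.6, 7.93 and 8.94 FPKM in untreated WT, treated WT, untreated KO and treated KO macrophages. Col1a1, a collagen gene, went the other way with IL-4 and was the 1 called higher in the KO. It was listed at 10.9, 8.46, 4.81 and 15.4 FPKM in the same order. The part of these markers in the Igf1 values was not tested. Lyz2, the gene into which the Cre of LysM-Cre is inserted, was listed at 11289 and 10811 FPKM in the WT and at 5193 and 4761 FPKM in the KO.

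Other markers bear on the identity of the cells. The macrophage markers Cd68 (3005 to 3465 FPKM) and Adgre1 (68.5 to 97.7 FPKM) were high in every library, and Csf1r rose with IL-4 in both genotypes. Of the 8 macrophage markers 1 was called higher and 1 lower with IL-4 in the WT (over all genes 4.91% and 7.89%). In the KO 1 was called higher and 2 lower (5.29% and 4.04%). The lower ones were Cd14, the lipopolysaccharide co-receptor, from 66.0 to 31.4 FPKM in WT and from 60.3 to 32.8 FPKM in KO cells, and Fcgr1, an Fc receptor gene, from 8.9 to 4.99 FPKM in the KO. Mertk was called higher in the KO with IL-4 and Lyz2 lower in the KO in both states. Summed neutrophil markers lay between 7.58 and 11.3 FPKM with S100a9, Ly6g and Retnlg listed at 0. Summed mast cell markers came to 4.75 and 3.63 FPKM in untreated and treated WT libraries and to 9.12 and 5.64 FPKM in the KO, with Fcer1a listed at 0. Calls were counted among the 3 that averaged 0.5 FPKM or more. Cma1, a mast cell chymase, was called higher in the untreated KO (37 against 9 reads) and lower with IL-4 in the KO (13 against 37 reads). Cpa3, mast cell carboxypeptidase, was called higher in the KO with IL-4 (36 against 15 reads). Summed markers of resident large peritoneal macrophages, B cells, T cells, eosinophils, platelets and dendritic cells stayed at or below 5.08 FPKM in every library. Among those averaging 0.5 FPKM or more, Gata6, a resident macrophage marker, was called lower in the KO with IL-4 (42 against 77 reads). Siglecf, an eosinophil marker, was called lower with IL-4 in the WT (27 against 53 reads). Over all genes the shares called lower in these pairs were 0.764% and 7.89%. The part of these cells and markers in the growth factor values, the higher Vegfa of the KO included, was not tested.

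Whether the genotypes responded differently to IL-4 was tested for the 7 factors with at least 10 reads in every library, as the log2 response in the KO minus that in the WT against counting error. Igf1 rose more in the KO, by 0.33 (95% interval 0.19 to 0.48; Benjamini-Hochberg adjusted p = 0.00024 over 11121 genes, fitted across all genes, of which 13.3% passed). After removal of the length trend this difference was 0.052 with an adjusted p of 0.817 across all genes, and the result for Igf1 was lost. For Gas6 the difference was 0.33 (0.067 to 0.59; adjusted p across all genes 0.087), and for Gdf15 it was -0.48 (-0.99 to 0.018, 0.236), so neither passed the threshold. Pdgfa differed by -0.33 (-0.65 to -0.0094; adjusted p across all genes 0.194). The intervals for Vegfa (-0.27 to 0.26), Pdgfb (-1.13 to 1.34) and Hbegf (-1.56 to 0.67) all contained 0, and those for Pdgfb and Hbegf were wide.

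**Figure D4:**
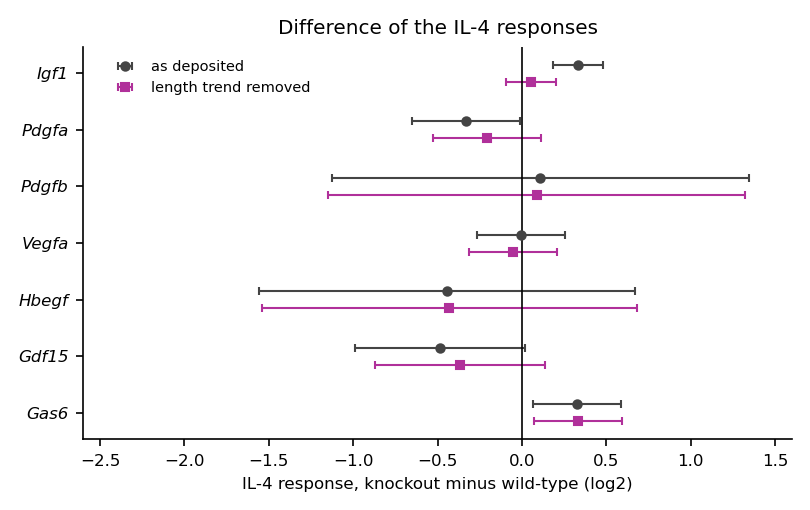
Points give the log2 IL-4 response in the KO minus that in the WT for 7 factors, from counts as deposited (circles) and after removal of the trend over transcript length (squares), with 95% intervals from counting error of the same width for both. The Igf1 interval lies above 0 as deposited (0.19 to 0.48) and includes 0 with the trend removed.

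An additive model of genotype and treatment used all 4 libraries (edgeR quasi-likelihood test, 1 residual degree of freedom). For IL-4, Hbegf (log2 change 3.70, adjusted p = 2.56e-08 by edgeR) and Igf1 (0.94, 6.33e-06) were called higher, and Pdgfb (-2.46, 2.81e-05), Vegfa (-1.08, 2.33e-06) and Gas6 (-0.89, 3.46e-05) lower. Of the 11791 genes tested 12.0% passed as higher and 13.3% as lower. Gdf15 (-0.42, adjusted p = 0.077 by edgeR) and Pdgfa (0.14, 0.441) were not called. For genotype Vegfa alone of the factors was called, at 0.55 higher in the KO (adjusted p = 0.012 by edgeR), where 1.29% of genes passed as higher and 0.373% as lower. The error of this model is the interaction itself, so a gene whose IL-4 response differs by genotype is tested less sharply. DESeq2 gave a Vegfa adjusted p of 0.279 for genotype.

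Genes around the factors were then counted by role, using list genes that averaged 0.5 FPKM or more. Among 15 other growth factor ligands, the IL-4 calls were 3 higher and 1 lower in the WT (over all genes 4.91% and 7.89%). In the KO they were 2 higher and 2 lower (5.29% and 4.04%). The median log2 ratios were 0.17 and 0.19, beside -0.015 and 0.0054 over all genes. Csf1, the growth factor of the macrophage lineage, rose from 3.35 to 7.63 FPKM in the WT and from 1.84 to 7.84 FPKM in the KO. Bmp2, a ligand of the BMP family, fell from 3 to 1.61 FPKM in WT and from 3.23 to 1.64 FPKM in KO cells. Nrg1, an ERBB ligand, and Ccn2, connective tissue growth factor, were called higher in both pairs from low levels, with 14 and 18 reads for Nrg1 and 13 and 16 for Ccn2 in the IL-4 libraries against 1 to 4 reads without IL-4. Both averaged below 0.5 FPKM and were not in the counts above.

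Receptors of the factors were counted next. Among 11 receptor genes 1 was called higher and 5 lower with IL-4 in the WT (over all genes 4.91% and 7.89%). In the KO 1 was called higher and 3 lower (5.29% and 4.04%). Their median log2 ratios were -0.55 and -0.19, beside -0.015 and 0.0054 over all genes. With the length trend removed the medians were -0.22 and -0.15, and 2 of the 5 and 2 of the 3 lower calls stayed past the fold of 1.5. The higher gene was Flt1 in both. Between the untreated libraries 1 receptor gene, Flt1, was called higher in the KO and 2 lower (over all genes 0.839% and 0.742%). The lower ones were Egfr (log2 ratio -1.28) and Pdgfra (-0.69), which came to -1.30 and -0.73 with the length trend removed. Pdgfra is also on the list of mesothelium and fibroblast markers, and the part of those cells in these values was not tested. Between the treated libraries 4 receptor genes were called higher in the KO and 0 lower (over all genes 3.04% and 0.764%). These were Insr at a log2 ratio of 0.67 and Mertk at 0.60 beside Flt1 and Nrp2. The pair of treated libraries carried the strongest length trend. After its removal, an alternative added once these values had been seen, Flt1 stayed past the fold of 1.5 at a log2 ratio of 1.40, whereas Nrp2 (0.50), Mertk (0.54) and Insr (0.24) did not. The IL-4 ratios of the long receptor transcripts moved too. With the trend removed Kdr and Nrp2 stayed past that fold in both genotypes (-1.07 and -1.03 for Kdr, -1.02 and -0.66 for Nrp2), and Nrp1 came to -0.56 in both, below it. In WT cells Igf1r and Pdgfra, called lower at -0.77 and -0.63, came to -0.15 and -0.29.

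Genes listed under IGF-binding and carrier proteins were counted as well. The list also held Igf2r, Igf2bp2 and Htra1, which do not encode carriers of IGF1, so the counts are not of carriers alone. Of 7 genes of this list 1 was called higher and 2 lower with IL-4 in the WT (over all genes 4.91% and 7.89%). In the KO 1 was called higher and 0 lower (5.29% and 4.04%). The lower ones in the WT were Igfbp4 (log2 ratio -0.77), an IGF-binding protein, and Htra1 (-0.70), a protease that cleaves such proteins. In the untreated KO 3 were called lower and 0 higher than in the WT, where 0.742% of all genes were called lower: Igfbp3 (-2.61, on 3 against 32 reads), Igfbp4 (-0.64) and Igfbp6. With IL-4 Htra1 was called higher in the KO (0.83) and Igfbp6 lower. Igfbp6, a binding protein with a preference for IGF2, rose from 3.16 to 6.12 FPKM in the WT and from 1.12 to 2.95 FPKM in the KO, and was called lower in the KO in both states (log2 ratios -1.42 and -1.03, on 16 against 45 and 42 against 89 reads). Igfbp5 rose from 2 to 35 reads in the WT and from 3 to 38 reads in the KO, at a mean of 0.295 FPKM. The mesothelium and fibroblast markers given above were also lower in the untreated KO, and their part in the values of these binding proteins was not tested.

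Genes of ligand shedding and maturation, inhibitors of the proteases included, held 2 calls higher and 1 lower with IL-4 among 16 in the WT. Over all genes these shares were 4.91% and 7.89%. In the KO 5 were called higher and 0 lower (over all genes 5.29% and 4.04%). The 5 were Adam8, Adam9, Rhbdf2, Furin and Timp3. Timp3, an inhibitor of metalloproteases, was listed at 1.46 and 0.99 FPKM in untreated and treated WT macrophages and at 0.53 and 3.31 FPKM in the KO. It was called higher with IL-4 in the KO (log2 ratio 2.44), where its WT ratio was -0.52 and not called. Between genotypes it was called lower in the KO without IL-4 (-1.31) and higher with IL-4 (1.65). The mesothelium and fibroblast markers had median log2 ratios with IL-4 of -0.22 in the WT and 0.35 in the KO. Their part in the Timp3 values was not tested. Adam8, a membrane protease of leukocytes, rose from 106.8 to 251.7 FPKM in WT and from 109.9 to 245.8 FPKM in KO cells. Rhbdf2, which encodes iRhom2, a partner of ADAM17, rose from 13.8 to 25.5 FPKM in WT and from 13.3 to 29.9 FPKM in KO cells. Adam17 itself, the main sheddase of HB-EGF, was not called in any pair (log2 ratios with IL-4 of -0.29 and -0.22).

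Feedback genes of receptor signalling were called higher with IL-4 in 6 of 16 and lower in 2 in the WT (over all genes 4.91% and 7.89%). In the KO 8 were called higher and 0 lower (5.29% and 4.04%). Their median log2 ratios were 0.38 and 0.65, beside -0.015 and 0.0054 over all genes. The lower ones were Spred2 (-0.65), an inhibitor of the RAS pathway, and Igfbp4, the binding protein counted in the IGF-binding list too. Ier3, an immediate early gene, rose from 5.07 to 60.3 FPKM in WT and from 5.16 to 53.9 FPKM in KO cells. Egr2, a zinc finger transcription factor, rose from 29.4 to 95.8 FPKM in WT and from 32.9 to 96.3 FPKM in KO cells, and Socs2, a cytokine signalling suppressor, from 0.22 to 2.97 FPKM and from 0.16 to 2.14 FPKM. Dusp4 and Errfi1, which restrain MAP kinases and the EGF receptor, and the transcription factor gene Etv5 were also called higher in both.

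Because Vegfa is a target of hypoxia-inducible factors, the hypoxia list was read beside it. The IL-4 calls among 21 genes were 3 higher and 2 lower in the WT (over all genes 4.91% and 7.89%). In the KO they were 4 higher and 0 lower (5.29% and 4.04%). The median log2 ratios were 0.10 and 0.29 where Vegfa fell, beside -0.015 and 0.0054 over all genes. Hk2, a hexokinase, rose from 10.4 to 23.2 FPKM in WT and from 14.5 to 35.8 FPKM in KO cells, and Ldha, lactate dehydrogenase A, from 261.0 to 393.8 FPKM and from 284.0 to 426.4 FPKM. With the length trend removed Ldha came to log2 ratios of 0.50 and 0.55, below the fold of 1.5, and the calls past the fold were 2 higher and 1 lower in the WT and 3 higher in the KO. Between genotypes 1 gene was called higher in the KO without IL-4 (over all genes 0.839%) and 4 with IL-4 (over all genes 3.04%). Lower calls were 0 in either pair (over all genes 0.742% and 0.764%). Hk2, among the 4 called higher with IL-4 at a log2 ratio of 0.62, came to 0.40 with the trend removed, which left 3. Those 3 were Epas1 (log2 ratio 0.97 before removal), Egln3 (1.16) and Ankrd37. Ankrd37 was called in both, at 0.8 and 3.42 FPKM in the untreated WT and KO and at 0.69 and 5.94 FPKM with IL-4.

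Gdf15 is a target of the integrated stress response, and most genes of its list rose with IL-4 where Gdf15 did not. Among 14 genes the IL-4 calls were 11 higher and 0 lower in the WT (over all genes 4.91% and 7.89%). In the KO they were 12 higher and 0 lower (5.29% and 4.04%). The median log2 ratios were 1.08 and 1.06, beside -0.015 and 0.0054 over all genes. Phgdh, the first enzyme of serine synthesis, rose from 20.7 to 72.1 FPKM in WT and from 12.7 to 58.3 FPKM in KO cells. Asns, asparagine synthetase, rose from 12.7 to 29.8 FPKM in WT and from 8.43 to 25.6 FPKM in KO cells, and Chac1, Trib3 and Nupr1 were called higher in both pairs too. The genes of this list were chosen with earlier results of these libraries known, so its direction is a description.

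**Figure D5:**
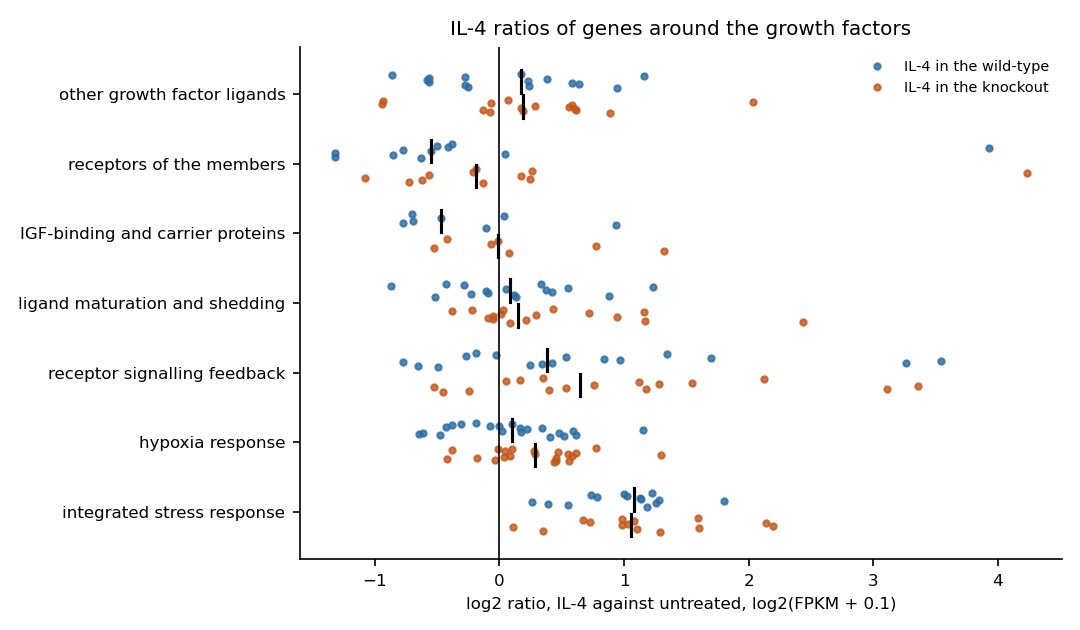
Each point is a gene averaging 0.5 FPKM or more, placed by its log2 ratio of IL-4 against untreated on the log2(FPKM + 0.1) scale in the WT (blue) and the KO (orange), with black lines at the list medians. The integrated stress response list lies highest with medians of 1.08 and 1.06, and the rightmost point among the receptors is Flt1.

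Genes whose 4-library profile was nearest to that of a factor were found by the Euclidean distance of centred log2(FPKM + 0.1) values among 7445 genes. Nearest to Igf1 were Ripk3 (distance 0.0695), Gpr65 (0.0704) and Tnfrsf26 (0.0957). Nearest to Vegfa were Mgll (0.0664), Cdkn1c (0.113) and Kctd12b (0.176), and nearest to Gas6 were Dtx4 (0.091), Cd14 (0.109) and Cybb (0.116). Nearest to Hbegf were Mcf2l (0.192), Serpina3g (0.237) and Mrc1 (0.337), of which Mrc1, the mannose receptor, was listed at 11.4 and 114.9 FPKM in untreated and treated WT cells, and at 15.9 and 126.4 FPKM in the KO. Nearest to Pdgfb were Arhgap22 (0.143), Clec12a (0.254) and Tlr13 (0.30). Likeness over 4 libraries is a description without a test.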

How the data were processed

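RNA from 4 groups of mouse peritoneal macrophages was sequenced, with 1 library per group assigned by the genotype and treatment labels. The authors used Bowtie against GRCm38 (mm10) and then RSEM, per the labels, and the versions are not given in the sources used here. The deposited expected counts are reads that RSEM assigned to each gene, which need not be whole. The deposited FPKM values scale them by transcript length and library total. Genes that were not listed were set to 0. Whether strand was used in counting is not given in the sources used here, and RefSeq genes overlapping Igf1, Pdgfb, Hbegf, Ereg and Gas6 had 0 reads. Symbols and positions came from a RefSeq table of GRCm38.p6, which matched 16365 of 16403 gene IDs.

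Expected counts were rounded for the tests. Pairs of libraries were compared by Fisher's exact test (scipy 1.17.1) with calls made at the study's thresholds (fold above 1.5, adjusted p under 0.05) and a pseudocount of 0.1 FPKM. The additive model used edgeR 4.0.16 (TMM, filterByExpr), with DESeq2 1.42.0 as an alternative. Differences of responses used counts with 0.5 added. A lowess curve (fraction 0.3) over transcript length was removed as an alternative. Promoter sequences were RefSeq's, GRCm38.p6. All 9 factors were named, with Trim24. From each list up to 6 genes called alike in both IL-4 pairs or both genotype pairs were eligible, ranked by mean log2 ratio, and the 3 nearest profiles were taken for each factor averaging 1 FPKM or more and ranging over 1 log2 unit or more. Axl, Tyro3, Insr, Mertk, Igf1r, Pdgfra, Adam17, Cd68, Adgre1, Timp3, Furin, Adam9, Igfbp3, Igfbp4, Htra1, Spred2, Cd14, Fcgr1, Cma1, Cpa3 and Col1a1 were added after their values were seen. So were Igf2r, Igf2bp2, Egfr, Epas1, Egln3, Gata6 and Siglecf. The factors and lists were chosen with earlier results of these data known. Without replicates the p-values of the Fisher and binomial tests and of the differences of responses measure counting error only. Those of the additive models rest on a spread estimated with 1 residual degree of freedom. The tests were checked on simulated counts.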

Additional observations from a re-analysis of the deposited data

Results flagged for a closer look

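The IL-4 response of Igf1 differed between the genotypes, by a log2 difference of 0.33 (KO minus WT) when the difference itself was tested on reads. Igf1 rose by a log2 ratio of 0.76 in the WT and 1.10 in the KO on read counts scaled by library total. The test covers counting error only, with 1 library per group, and 13.3% of 11121 genes passed it. With the trend over transcript length removed, the difference was 0.052 and did not pass.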

How the results depend on the processing

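In each pair of libraries the factors called were the same 5 (WT) or 6 (KO) with IL-4, and 0 by genotype, at pseudocounts of 0.01 and 1, at a minimum of 1 FPKM, under TMM and DESeq2 scaling and with the length trend removed. A fold of 2 left 4 factors called in each IL-4 pair (Pdgfb, Vegfa, Hbegf and Gas6 in WT cells, Igf1, Pdgfb, Vegfa and Hbegf in KO cells). Without replicates the spread between mice is unknown. When a biological coefficient of variation (BCV) of 0.2 was assumed in edgeR, Pdgfb and Hbegf (2 factors) were called in either IL-4 pair. At a BCV of 0.4, which was added after seeing the data, 1 was called in WT (Hbegf) and 0 in KO cells.

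Over all genes, the numbers called were 1996 (IL-4, WT), 1468 (IL-4, KO), 247 (genotype, untreated) and 593 (genotype, IL-4). They became 861, 710, 127 and 171 at a fold of 2, then 260, 272, 15 and 21 at a BCV of 0.2, and 48, 33, 7 and 11 at a BCV of 0.4. A pseudocount of 1 gave 155 and 321 genes by genotype, and removal of the length trend gave 316 for genotype with IL-4. In the additive model DESeq2 called 1229 genes for IL-4 (2987 by edgeR) and 65 for genotype (196 by edgeR), with 0 factors for genotype. Testing every gene with a read gave 1675 and 24 genes and again 0 factors for genotype. Upper-quartile scaling gave 494 genes for genotype, and the length trend as an offset gave 624 genes and 3 factors (Igf1, Pdgfa and Vegfa). Gdf15 passed for IL-4 under these last settings (adjusted p by edgeR 0.038 and 0.0025). The difference of the Igf1 responses left 0 factors past the threshold once the length trend was removed. The cause of these changes was not tested. No factor changed sign under a setting that called it. No replicate could be left out and no paired analysis was possible because each group held 1 library and the labels carry no replicate numbers.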
